A study of Mus musculus with 12 samples.

Results

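The genes described here are 10 type I interferon antiviral genes, Ifit1, Ifit2, Ifit3, Isg15, Rtp4, Oasl2, Usp18, Rsad2, Bst2 and Ifi27l2a, chosen by name and taken through every array probe set annotated to that gene and to no other. Of the 10 genes, 9 had such a probe set, among 18193 genes measured in all. The only probe set of Isg15 is annotated to a further gene as well, so no level is given for Isg15. The 9 genes were measured by 12 probe sets, 3 of them for Rsad2, 2 for Rtp4 and 1 for each of the others.

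RNA of T cells from the spleen of female C57BL/6 mice, aged 8 to 12 weeks per the labels, was hybridised to 12 single-colour Affymetrix arrays. CD8+ NKT-like cells (5 arrays) were splenic CD8+ T cells expanded with beads coated with anti-CD3 and anti-CD28 and a high dose of IL-2, and carry suppressive function per the labels. Cultured CD4+ T cells (3 arrays) were sorted splenic CD4+ cells expanded by the same protocol, and are labelled as less suppressive. Activated CD8+ T cells (2 arrays) had received low doses of the same antibodies in soluble form, and naïve CD8+ T cells (2 arrays) were freshly isolated. All CD8+ groups began from cells enriched by negative selection, not by sorting, and naïve CD4+ cells were not analysed here, so the cultured CD4+ cells were compared with naïve cells of another lineage. Values are log2 expression levels made by RMA, and "lower" or "higher" is used for a gene with a limma q-value of at most 0.01, a q-value being the share of false calls to be accepted at that cut. The arrays carry mean levels of a whole cell population, so that fewer cells expressing a gene and less RNA per cell cannot be told apart.

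Type I interferons are secreted on viral infection and bind the receptor IFNAR1/IFNAR2, whose kinases JAK1 and TYK2 switch on the ISGF3 complex. This complex, which contains STAT2 and IRF9, binds the interferon-stimulated response element in the promoters of antiviral genes. The products act at separate steps of viral growth, from sensing of viral RNA to release of the particle, and most are present at a low level in resting cells and are strongly induced by interferon.

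Lineage genes followed the labels. Cd8a averaged 10.91 ± 0.65 in NKT-like cells (SD, n = 5), 6.73 ± 0.27 in cultured CD4+ cells (SD, n = 3), 10.30 ± 0.37 in activated cells (SD, n = 2) and 11.39 ± 0.46 in naïve cells (SD, n = 2). Cd4 was at 9.82 to 10.10 in the cultured CD4+ arrays and lay between 6.55 and 7.20 in all CD8+ arrays. The array medians ran from 6.23 to 6.42, and the SD over probe sets was 1.78 to 1.83 in the naïve arrays and activated replicate 2, against 1.91 to 2.03 in the other 9 arrays.

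Most of the 9 genes had their highest level in freshly isolated cells. The group mean was highest in naïve CD8+ cells for 7 genes and in cultured CD4+ cells for the other 2, Bst2 and Ifi27l2a. It was lowest in NKT-like cells for 6 genes, Ifit1, Ifit2, Rtp4, Usp18, Rsad2 and Ifi27l2a, in cultured CD4+ cells for Ifit3 and Oasl2, and in naïve cells for Bst2. The plot of the 9 genes by array shows these orders. How often each group was highest or lowest among all genes was not counted.

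**Figure D1:**
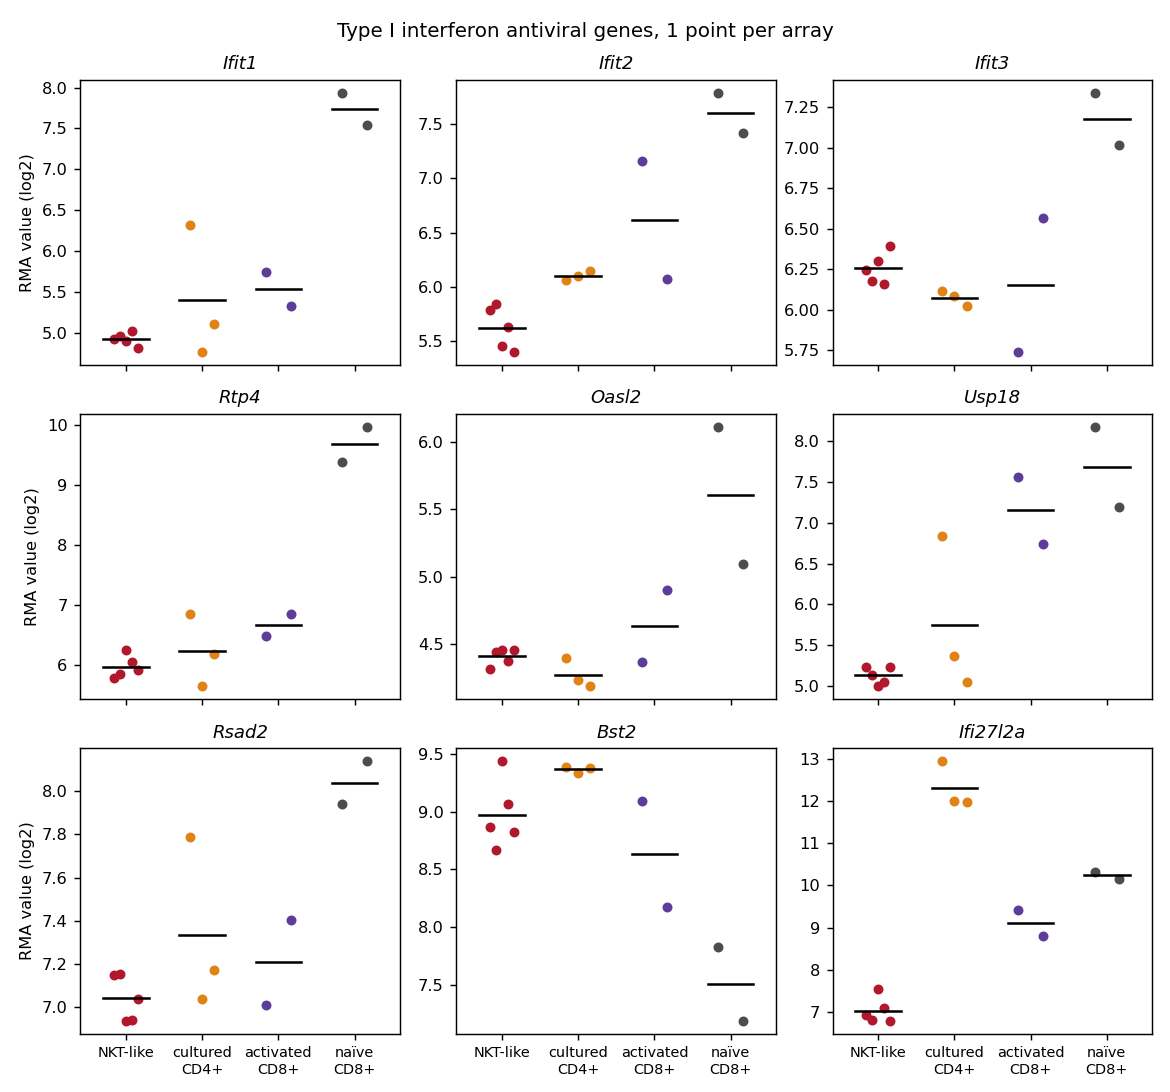
RMA value (log2) of each of the 9 measured genes in the 12 arrays, 1 point per array, with the group mean as a bar; groups from left to right are NKT-like, cultured CD4+, activated CD8+ and naïve CD8+ cells, and each panel has its own vertical axis. The 2 naïve arrays lie above every NKT-like array for all genes but Bst2, and the 3 cultured CD4+ arrays lie above all others for Ifi27l2a.

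Against naïve CD8+ T cells, NKT-like cells had lower RNA of 8 of the 9 genes and higher RNA of 1, Bst2. Over all genes 6.61% were lower and 11% higher in this comparison. The median difference of the 9 genes was -1.99 on the log2 scale, with a range from -3.70 (Rtp4) to 1.46 (Bst2), beside a median of -0.05 over all genes. The 5 NKT-like arrays and the 2 naïve arrays did not overlap for any of the 9 genes, and 49% of all genes did not overlap between these groups.

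The naïve arrays also had higher summed levels of markers of other spleen cells. The summed linear level of 7 B cell markers was 501 to 540.2 in NKT-like arrays, 481.5 to 566 in cultured CD4+, 656 to 706 in activated and 1054 to 1549 in naïve arrays, and Ms4a1, a B cell surface protein, averaged 5.97 in NKT-like and 8.47 in naïve cells. For 6 red cell precursor markers the sum was 473 to 527 in NKT-like arrays, 494.5 to 535 in cultured CD4+, 529.8 to 637 in activated and 5415 to 7956 in naïve arrays. For 8 myeloid markers it was 660.5 to 788 in NKT-like arrays, 577 to 885 in cultured CD4+, 705 to 992 in activated and 1090 to 1188 in naïve arrays. For 5 markers of plasmacytoid dendritic cells, which secrete much type I interferon on infection, it was 525 to 570.1 in NKT-like arrays, 474 to 528 in cultured CD4+, 485 to 556 in activated and 671 to 717 in naïve arrays. Against naïve cells, NKT-like cells were lower in 5 of 7 B cell, 4 of 6 red cell, 3 of 8 myeloid and 1 of 5 plasmacytoid markers, and higher in none. Of all genes, 6.61% were lower and 11% higher there. The B cell marker Pax5 averaged 6.41 in NKT-like and 6.42 in naïve cells, and Ebf1 of the same list 5.12 and 5.01. The red cell marker Alas2 averaged 5.47 in both groups, and the myeloid marker Cd14 7.22 in NKT-like and 6.82 in naïve cells. The plasmacytoid marker that passed was Pacsin1, at 6.34 in NKT-like and 7.77 in naïve cells, and the median difference of those 5 markers was 0.05, with Klk1 at 4.57 in NKT-like and 4.28 in naïve cells. The part of these cells in the differences from naïve cells was not tested.

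The IFIT genes encode proteins that bind viral RNA and hold back its translation, and in the mouse genome assembly GRCm38.p6 they lie close together on chromosome 19, with Ifit3 next to Ifit2. The core of the response element was searched for in the 250 bases before the annotated start as GAAA, any 2 bases and GAAA, which on the other strand reads TTTC, any 2 bases and TTTC. Of the 10 genes, 7 had a RefSeq promoter window, and the motif stood in a window of 5 of them. Of all 27025 genes with a window 3.46% held it, and of all 32851 windows 2.98%. Of the 6 genes with both a level and a window, 4 held it, and these are shown because they include genes that were lower in NKT-like cells and Bst2, which was higher. Capitals mark the motif, and each run is written 5′ to 3′ on the strand of the gene.
Ifit1, chr19:34640765-34640833, plus strand: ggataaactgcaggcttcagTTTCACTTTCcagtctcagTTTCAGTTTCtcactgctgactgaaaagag
Ifit3, chr19:34583353-34583436, plus strand: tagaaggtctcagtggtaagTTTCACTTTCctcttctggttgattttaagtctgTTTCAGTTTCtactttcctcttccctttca
Rsad2, chr12:26456543-26456592, minus strand: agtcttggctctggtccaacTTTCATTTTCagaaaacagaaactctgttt
Bst2, chr8:71537567-71537622, minus strand: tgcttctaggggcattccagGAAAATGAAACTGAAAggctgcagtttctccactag
The matches began 104 and 85 bases before the start in Ifit1, 156 and 122 in Ifit3, 120 in Rsad2, and 130 and 124 in Bst2, where they overlap. The windows of Ifit2 and Oasl2 did not hold these letters. A match describes the sequence and is no measure of binding.

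Ifit1 had log2 levels of 4.92, 4.96, 4.90, 5.02 and 4.81 in NKT-like cells, 6.32, 4.76 and 5.10 in cultured CD4+ cells, 5.74 and 5.33 in activated cells, and 7.94 and 7.55 in naïve cells. Both naïve arrays lay above all others. The gene was lower by 2.82 ± 0.32 (SE) in NKT-like than in naïve cells, 7.06-fold, with q = 7.44e-05 in limma. In cultured CD4+ cells it was 5.09-fold lower than in naïve cells (limma q = 0.000436), and in activated cells 4.61-fold lower (limma q = 0.00309). Cultured CD4+ replicate 1 lay 1.22 above the next array of its group.

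Ifit2, a close relative in sequence, read 5.78, 5.84, 5.45, 5.63 and 5.39 in NKT-like cells, 6.06, 6.10 and 6.14 in cultured CD4+ cells, 7.16 and 6.07 in activated cells, and 7.79 and 7.42 in naïve cells. NKT-like arrays were the lowest and naïve arrays the highest, without overlap. The change between NKT-like and naïve cells was -1.99 ± 0.24 (limma q = 0.000112), and that between cultured CD4+ and naïve cells was -1.50 ± 0.26 (limma q = 0.00107). For activated against naïve cells the difference of -0.99 did not pass (limma q = 0.0317), and the 2 activated arrays lay 1.09 apart.

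Ifit3, whose protein partners that of Ifit1 in human cells, spanned less of the scale. It read 6.25, 6.17, 6.30, 6.16 and 6.39 in NKT-like cells, 6.11, 6.09 and 6.02 in cultured CD4+ cells, 5.74 and 6.57 in activated cells, and 7.34 and 7.01 in naïve cells. All 3 groups lay below the naïve arrays, 1.89-fold for NKT-like (limma q = 0.00206), 2.15-fold for cultured CD4+ (limma q = 0.00129) and 2.03-fold for activated cells (limma q = 0.00806). Activated replicate 1 was the lowest of all 12 arrays and replicate 2 the highest outside the naïve group.

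Rtp4, a transporter-like protein first described as a chaperone of G protein-coupled receptors and a negative regulator of interferon responses in mice, had the largest difference from naïve cells among the 9 genes. Its probe set 1418580_at read 5.79, 5.87, 6.25, 6.06 and 5.93 in NKT-like cells, 6.86, 5.65 and 6.20 in cultured CD4+ cells, 6.50 and 6.86 in activated cells, and 9.39 and 9.96 in naïve cells. The naïve arrays stood clear of the other 10. Rtp4 was 13.0-fold lower in NKT-like cells (-3.70 ± 0.27, limma q = 4.13e-06), 10.9-fold lower in cultured CD4+ cells (limma q = 1.43e-05) and 8.00-fold lower in activated cells (limma q = 0.000238). The other probe set of the gene, 1449143_at, stayed between 4.31 and 4.83 in all 12 arrays, with a difference of -0.13 between NKT-like and naïve cells (limma q = 0.196), and with the mean of both probe sets the difference of the gene was -1.91.

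Rsad2 encodes viperin, an enzyme that makes a chain-terminating nucleotide. Its brightest probe set, 1436058_at, read 7.15, 7.15, 6.94, 6.94 and 7.04 in NKT-like cells, 7.79, 7.04 and 7.17 in cultured CD4+ cells, 7.01 and 7.40 in activated cells, and 7.94 and 8.14 in naïve cells. NKT-like cells were 1.99-fold lower than naïve cells (limma q = 0.00156), whereas the cultured CD4+ (-0.70, limma q = 0.0125) and activated cells (-0.83, limma q = 0.0227) did not pass. Both of the other probe sets differed less between NKT-like and naïve cells and did not pass, 1421009_at by -0.76 (limma q = 0.0135) and 1421008_at by -0.11 (limma q = 0.243).

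Oasl2 belongs to the family of oligoadenylate synthetases, which make the messenger that switches on RNase L. It was near the lower end of the scale in all but the naïve arrays, with 4.32, 4.45, 4.46, 4.38 and 4.46 in NKT-like cells, 4.40, 4.24 and 4.19 in cultured CD4+ cells, 4.37 and 4.90 in activated cells, and 6.11 and 5.10 in naïve cells. The 2 naïve arrays differed by 1.01, about as much as the groups. Oasl2 was lower than in naïve cells in NKT-like cells (-1.19 ± 0.22, limma q = 0.00153) and in cultured CD4+ cells (-1.33 ± 0.24, limma q = 0.00138), and the difference of -0.97 in activated cells did not pass (limma q = 0.0252).

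Usp18 removes the ubiquitin-like modifier ISG15 from proteins and, at the receptor, restrains the response to type I interferon. It was the gene in which activated cells came closest to naïve cells. Levels were 5.23, 5.13, 4.99, 5.05 and 5.23 in NKT-like cells, 6.84, 5.36 and 5.05 in cultured CD4+ cells, 7.57 and 6.74 in activated cells, and 8.17 and 7.19 in naïve cells. Activated and naïve arrays overlapped (-0.53, 95% interval -1.63 to 0.58, limma q = 0.372), and this was the only one of the 9 genes whose activated and naïve arrays did so. NKT-like cells were 5.87-fold lower than naïve cells (limma q = 0.000757), and cultured CD4+ cells 3.81-fold lower (limma q = 0.00532), although cultured CD4+ replicate 1 lay 1.47 above the next array of its group. Between NKT-like and activated cells the difference was -2.03 ± 0.42 without overlap, and missed the threshold at a limma q of 0.0104.

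Bst2, or tetherin, is a membrane protein that holds budding virus particles on the cell surface, and in mice also a marker of plasmacytoid dendritic cells. It alone of the 9 genes was lowest in naïve cells. It read 8.86, 8.67, 9.43, 9.06 and 8.83 in NKT-like cells, 9.38, 9.33 and 9.38 in cultured CD4+ cells, 9.09 and 8.17 in activated cells, and 7.83 and 7.19 in naïve cells. Every array of the other groups lay above both naïve arrays. Bst2 was 2.75-fold higher in NKT-like cells (1.46 ± 0.26, limma q = 0.00117) and 3.61-fold higher in cultured CD4+ cells (1.85 ± 0.28, limma q = 0.000506) than in naïve cells. In activated cells the difference of 1.12 did not pass (limma q = 0.0259), and the 2 activated arrays lay 0.92 apart.

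Ifi27l2a, which encodes a small interferon-inducible membrane protein, had the widest range of group means among the 9 genes, 5.27 on the log2 scale. It read 6.92, 6.81, 7.55, 7.09 and 6.79 in NKT-like cells, 12.94, 11.99 and 11.98 in cultured CD4+ cells, 9.41 and 8.80 in activated cells, and 10.32 and 10.16 in naïve cells. The 4 groups did not overlap, in the order cultured CD4+, naïve, activated, NKT-like from high to low. Against naïve cells it was 9.23-fold lower in NKT-like cells (limma q = 1.54e-05) but 4.18-fold higher in cultured CD4+ cells (limma q = 0.00047), and in activated cells the difference of -1.14 did not pass (limma q = 0.0358).

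Cultured CD4+ T cells were thus lower than naïve CD8+ cells in 6 of the 9 genes, Ifit1, Ifit2, Ifit3, Rtp4, Oasl2 and Usp18, and higher in Bst2 and Ifi27l2a. Over all genes 5.58% were lower and 11.6% higher. Their arrays did not overlap those of naïve cells for any of the 9 genes, and for 53.5% of all genes. The median difference of the 9 genes was -1.33, beside -0.05 over all genes. Activated CD8+ cells were lower than naïve cells in 3 of the 9, Ifit1, Ifit3 and Rtp4, and higher in none, with 2.68% of all genes lower and 4.35% higher and a median difference of -0.99, beside -0.05 over all genes. Activated and naïve arrays did not overlap for 8 of the 9 genes, all but Usp18, and for 45.5% of all genes. These comparisons and that of NKT-like cells share the same 2 naïve arrays. The plot of differences from naïve cells sets the 3 comparisons side by side.

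**Figure D2:**
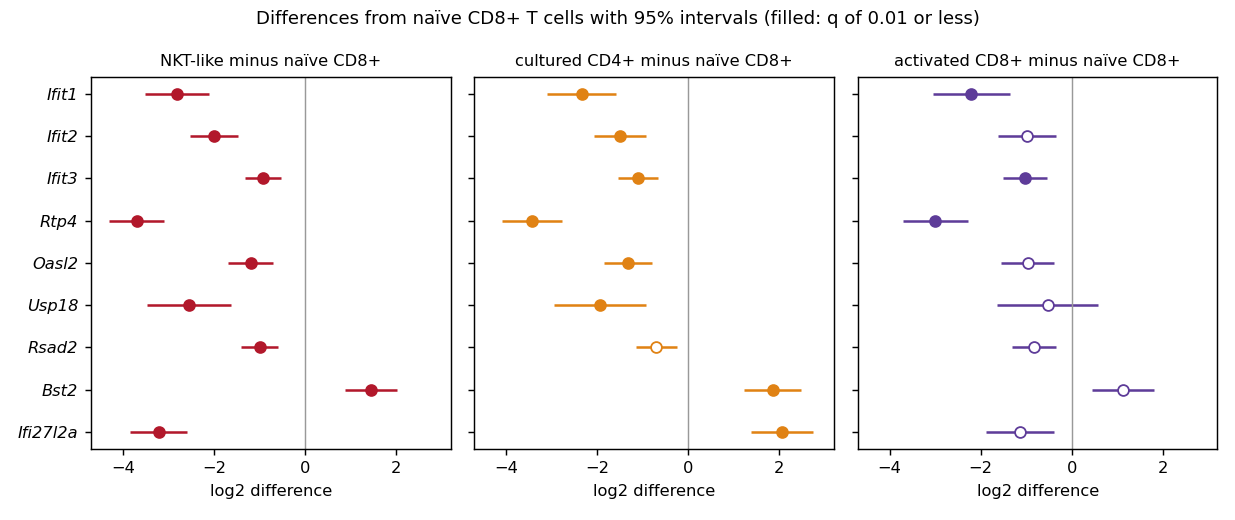
Log2 difference from naïve CD8+ T cells (horizontal axis) for the 9 genes in NKT-like, cultured CD4+ and activated cells, with the 95% interval of the fit; filled points have q of 0.01 or less and open points do not. Points of 8 genes lie left of 0 in the NKT-like panel, and Ifi27l2a lies at -3.21 there and at 2.06 in the cultured CD4+ panel.

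Leaving out a naïve array leaves that group with 1 array, which is then assumed to vary like the other groups, and a call can be lost through the smaller number of arrays while its difference stays. Without naïve replicate 1, the higher of the 2 for 7 genes, 4 of the 9 genes were lower in NKT-like cells, 3 in cultured CD4+ cells and 1 in activated cells. The NKT-like calls lost were those of Ifit3 (-0.76), Oasl2 (-0.68), Usp18 (-2.06) and Rsad2 (-1.09), and of these Oasl2 had its difference reduced by the most and Rsad2 had a larger one than with both arrays. Without naïve replicate 2, the calls of Ifit3 (-1.08), Rsad2 (-0.89) and Bst2 (1.14) were lost in NKT-like cells, those of Usp18 and Bst2 in cultured CD4+ cells, and those of Ifit1 and Ifit3 in activated cells. The call of Usp18 in cultured CD4+ cells was also lost without replicate 2 or 3 of that group, that of Ifit1 in activated cells without either activated array, and that of Ifit3 in activated cells without any 1 of the arrays other than cultured CD4+ replicate 1 and activated replicate 2. The calls of Ifit1, Ifit2, Rtp4 and Ifi27l2a in NKT-like cells, of Ifit1, Rtp4 and Ifi27l2a in cultured CD4+ cells and of Rtp4 in activated cells held in all 20 alternatives that were fitted.

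Between NKT-like cells and cultured CD4+ cells, grown under the same conditions, 1 of the 9 genes differed. Ifi27l2a was 38.6-fold lower in NKT-like cells (-5.27 ± 0.25, limma q = 6.37e-07), in a comparison in which 1.8% of all genes were lower and 1.21% higher. The other 8 genes did not pass. The median difference of the 9 was -0.39, beside -0.0026 over all genes. For Ifit1 the 95% interval of the difference ran from -1.09 to 0.14, for Ifit2 from -0.94 to -0.02, for Usp18 from -1.43 to 0.19 and for Bst2 from -0.89 to 0.10, so that the intervals of Ifit1 and Usp18 reach a 2-fold lower level in NKT-like cells.

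NKT-like cells were lower than activated CD8+ cells in Ifi27l2a alone (-2.07 ± 0.28, limma q = 0.00113), where 0.934% of all genes were lower and 3.34% higher. NKT-like arrays lay below both activated arrays without overlap for 5 of the 9 genes, Ifit1, Ifit2, Rtp4, Usp18 and Ifi27l2a, whereas 10.1% of all genes did so. The median difference of the 9 genes was -0.61, beside -0.03 over all genes. Cultured CD4+ cells were higher than activated cells in Ifi27l2a (9.18-fold, limma q = 0.000223) while the other 8 genes did not pass, with 1.48% of all genes higher and 0.319% lower.

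Within groups the 9 genes varied unequally. In the 5 NKT-like arrays the SD over arrays was 0.06 to 0.31, the largest for Ifi27l2a and Bst2. In cultured CD4+ cells the SD was largest for Usp18 (0.96) and Ifit1 (0.82), and replicate 1 was the highest of the 3 arrays for 8 of the 9 genes, all but Ifit2. Its lead over the next array ran from 0.0085 (Bst2) to 1.47 (Usp18). Over all probe sets tested, its differences from replicates 2 and 3 had an SD of 0.40 and 0.42, against 0.20 between replicates 2 and 3. For how many of all genes replicate 1 was the highest was not counted. Without replicate 1 the difference in Usp18 between cultured CD4+ and activated cells passed (-1.95, limma q = 0.00612), as did that in Rsad2 between cultured CD4+ and naïve cells (-0.93, limma q = 0.000699). The map of centred levels shows this array beside the others of its group.

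**Figure D3:**
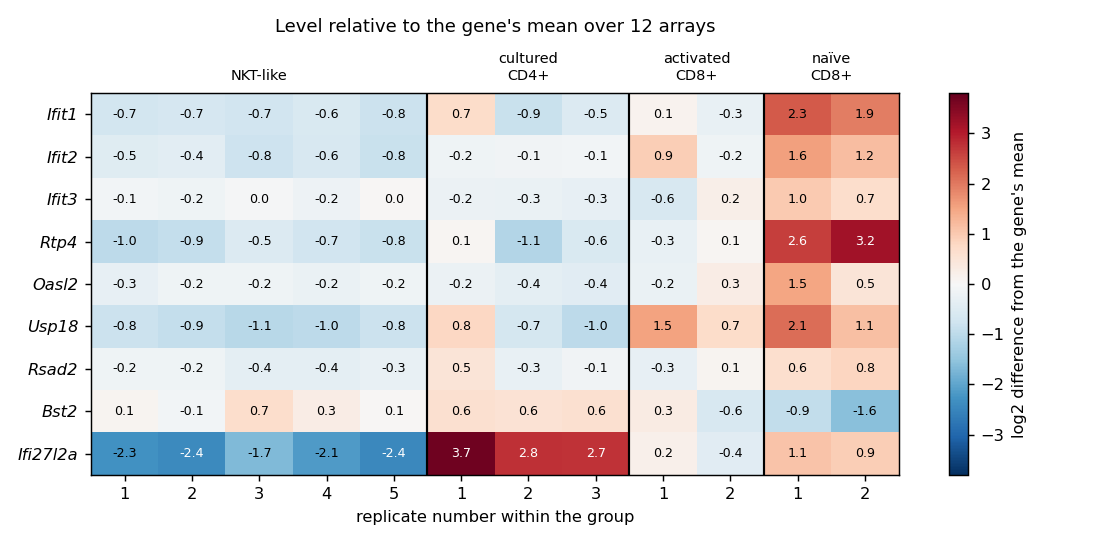
Log2 level of the 9 genes relative to the gene's mean over the 12 arrays (colour and printed value), with arrays in columns grouped as NKT-like, cultured CD4+, activated CD8+ and naïve CD8+ and numbered by replicate. Rtp4 is at 2.6 and 3.2 in the naïve arrays, Ifi27l2a at 2.7 to 3.7 in the cultured CD4+ arrays, and cultured CD4+ replicate 1 is above its group's other arrays for all genes but Ifit2.

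Ifi27l2a and Bst2 also stood farthest from the mean profile of the 9 genes. The root mean square distance of a gene's centred profile from that mean over 12 arrays was 0.36 for Ifit2 and Rsad2, 0.65 for Usp18, 0.86 for Rtp4, 1.16 for Bst2 and 1.77 for Ifi27l2a. The mean includes the gene itself, and the distance depends on the size of a gene's changes as well as on their order. The 5 other genes nearest to the mean profile were Igf1r, Ephx1, Tmem50b, Phf11d and Il6ra, at distances of 0.23 to 0.25. Igf1r, the receptor of insulin-like growth factor, averaged 7.51 in NKT-like cells, 8.37 in CD4+ cultures, 8.38 in activated cells and 8.87 in naïve cells. Il6ra, the receptor of interleukin-6, averaged 7.69 in NKT-like cells, 8.03 in CD4+ cultures, 7.85 in activated cells and 9.19 in naïve cells.

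Of 17 listed interferon genes 9 were measured, and a single one was higher in any group: Ifng, the type II interferon. Its log2 level was 7.85 to 11.80 in NKT-like cells, 6.84 to 11.65 in cultured CD4+ cells, 12.28 and 12.45 in activated cells, and 4.35 in both naïve arrays. It was 51.2-fold higher than in naïve cells in NKT-like cells (limma q = 0.00485), 50.3-fold in cultured CD4+ cells (limma q = 0.00763) and 259-fold in activated cells (limma q = 0.00591). Each of the 3 calls was lost without naïve replicate 1 and without naïve replicate 2, although the differences stayed at 5.67 and 5.68 log2 units in NKT-like, 5.65 and 5.66 in cultured CD4+ and 8.01 and 8.02 in activated cells, the naïve group then holding 1 array. The call in cultured CD4+ cells was also lost without NKT-like replicate 3, cultured CD4+ replicate 2 or cultured CD4+ replicate 3, and that in activated cells without either activated array. Of the type I genes, Ifna1 was lower in NKT-like cells (-0.62, limma q = 0.00218), by a probe set that can bind related sequences, and Ifnb1 in cultured CD4+ cells (-0.45, limma q = 0.00743, called in 6 of 20 alternatives), and the others did not pass in any comparison with naïve cells. Ifna1 averaged 7.13 in NKT-like and 7.75 in naïve cells, and Ifnb1 6.27 in cultured CD4+ and 6.71 in naïve cells. The array medians were 6.23 to 6.42, and whether these 2 genes were expressed above background was not tested.

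Of 7 genes of the type I receptor and ISGF3, 6 were measured. None passed in NKT-like against naïve cells, where Ifnar1 differed by -0.59 (limma q = 0.0431), Ifnar2 by -0.69 (limma q = 0.0533), Jak1 by -0.39 (limma q = 0.133), Tyk2 by 0.25 (limma q = 0.0791), Stat2 by 0.07 (limma q = 0.352) and Irf9 by -0.55 (limma q = 0.0999). Jak1, the kinase shared by type I and type II receptors, was 2.72-fold lower in cultured CD4+ cells (limma q = 0.0028) and 3.27-fold lower in activated cells (limma q = 0.00517) than in naïve cells. Tyk2 was 1.62-fold higher in NKT-like than in activated cells (limma q = 0.00676), a call made in 7 of 20 alternatives, where 3.34% of all genes were higher.

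Of 52 further interferon-stimulated genes 49 were measured, and NKT-like cells were lower than naïve cells in 21 and higher in 1, with a median difference of -0.55 beside -0.05 over all genes. Slfn1 and Slfn8, of the schlafen family that restrains T cell growth and viral translation, were lower, with differences of -2.59 (limma q = 0.00178) and -2.32 (limma q = 0.000225) on the log2 scale, and Trim30a was 4.94-fold lower (limma q = 0.000272). The difference of Slfn1 was -1.40 with the mean of its probe sets and -1.84 without naïve replicate 1, where it did not pass. The gene that was higher was Mx1, a GTPase that blocks influenza virus and is defective in C57BL/6 mice, at 6.51 to 8.26 in NKT-like cells against 6.11 and 6.18 in naïve cells (1.33 log2 units). In cultured CD4+ cells 10 were lower and 5 higher than in naïve cells, Samd9l being 13.5-fold lower (limma q = 1.02e-05) and Ly6e 3.66-fold lower (limma q = 6.47e-05). With the mean of its probe sets Ly6e differed by -0.67 and did not pass (limma q = 0.0658). In activated cells 10 were lower and none higher, led by Samd9l (7.80-fold, limma q = 0.000315), Slfn8 (4.55-fold, limma q = 0.00291) and Ddx60, an RNA helicase (3.86-fold, limma q = 9.97e-05, and -1.05 log2 units with the mean of its probe sets). Shares of all genes lower and higher were 6.61% and 11% in NKT-like, 5.58% and 11.6% in cultured CD4+, and 2.68% and 4.35% in activated cells.

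Between the cultures, 7 of the 49 genes were lower in NKT-like cells and 1 was higher, beside 1.8% and 1.21% of all genes. Slfn1 was 8.54-fold below its level in cultured CD4+ cells (limma q = 0.00168, and -1.52 log2 units with the mean of its probe sets) and Samd9l 3.72-fold higher (limma q = 0.00103). Against activated cells, NKT-like cells were higher in 3, Isg20, a nuclease (5.31-fold, limma q = 0.000754), Epsti1 (3.87-fold, limma q = 0.00177) and Mx1 (3.48-fold, limma q = 0.00875), and lower in none. Mx1 was called there in 6 of 20 alternatives, and Epsti1 differed by 1.21 with the mean of its probe sets. In that comparison 3.34% of all genes were higher and 0.934% lower. Cultured CD4+ cells were higher than activated cells in 3 of the 49 and lower in none, beside 1.48% and 0.319% of all genes. The 3 genes were Isg20 (called in 6 of 20 alternatives), Pml (12 of 20) and Ube2l6 (11 of the 19 that could be fitted).

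Sensors and relays that lead to interferon production were all measured, 14 of 14, of which 1 was higher and 1 lower in NKT-like, 3 higher and 1 lower in cultured CD4+, and none higher and 1 lower in activated cells than in naïve cells. Shares of all genes higher and lower were 11% and 6.61% in NKT-like, 11.6% and 5.58% in cultured CD4+, and 4.35% and 2.68% in activated cells. The median differences of the list were -0.02, -0.02 and -0.07 in that order, beside -0.05 over all genes in each comparison. Mavs, the mitochondrial adaptor of the RNA sensors, was 1.73-fold higher in NKT-like cells (limma q = 0.00221). Ifih1, which encodes the RNA sensor MDA5, was in NKT-like cells 2.10-fold below its level in naïve cells (limma q = 0.00265), in cultured CD4+ cells 1.94-fold above it (limma q = 0.00722), and in NKT-like cells 4.09-fold below its level in the CD4+ cultures (limma q = 0.000119). Cultured CD4+ cells were also higher than naïve cells in Zbp1, a sensor of Z-form nucleic acid (3.46-fold, limma q = 0.00259), and in Sting1, the adaptor of cytosolic DNA sensing (3.31-fold, limma q = 0.00171). With the mean of its probe sets Zbp1 differed by 1.19, and without naïve replicate 2 Sting1 differed by 1.07 and did not pass. Ddx58, which encodes the RNA sensor RIG-I, was lower than in naïve cells in activated (3.41-fold, limma q = 0.00101) and cultured CD4+ cells (1.80-fold, limma q = 0.00876). In cultured CD4+ cells against naïve cells, Ifih1 and Ddx58 were each called in 8 of 20 alternatives, and in activated cells Ddx58 differed by -1.11 with the mean of its probe sets. In NKT-like cells against naïve cells, Mavs was called in 18 and Ifih1 in 16 of 20 alternatives. The difference of Mavs there was 0.79 log2 units, and 0.52 without naïve replicate 2.

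The interferon gamma arm was a list of 13 measured genes. Against naïve cells, NKT-like cells were lower in 5 genes and higher in 1, cultured CD4+ cells lower in 1 and higher in 4, and activated cells lower in 1 and higher in 1. Shares of all genes lower and higher were 6.61% and 11% in NKT-like, 5.58% and 11.6% in cultured CD4+, and 2.68% and 4.35% in activated cells. The median differences of the list were -0.20, 0.86 and 0.16 in that order, beside -0.05 over all genes in each comparison. Gbp2, a GTPase that attacks the vacuoles of intracellular pathogens, read 6.62 to 7.85 in NKT-like cells, 12.20 to 12.64 in cultured CD4+ cells, 10.82 and 11.43 in activated cells, and 8.61 and 9.24 in naïve cells, without overlap between any of the groups. As with Ifi27l2a, cultured CD4+ arrays were the highest and NKT-like arrays the lowest, and the 2 cultures differed in Gbp2 by 33.7-fold (limma q = 2.74e-06). Against naïve cells Gbp2 was 3.12-fold lower in NKT-like cells (limma q = 0.00241), 10.8-fold higher in cultured CD4+ cells (limma q = 5.66e-05) and 4.59-fold higher in activated cells (limma q = 0.00399). These calls were made in 17, 20 and 15 of 20 alternatives in that order. In NKT-like cells the difference of Gbp2 was -1.33 without naïve replicate 1 and -1.96 without naïve replicate 2. Jak2, a kinase of the interferon gamma receptor, was in NKT-like cells 4.62-fold below its level in the CD4+ cultures (limma q = 2.5e-05). Of 7 brakes on interferon signalling, 1 passed in any comparison: Ptpn2, a phosphatase that acts on JAK1, was 2.20-fold higher in cultured CD4+ than in naïve cells (limma q = 0.00331).

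**Figure D4:**
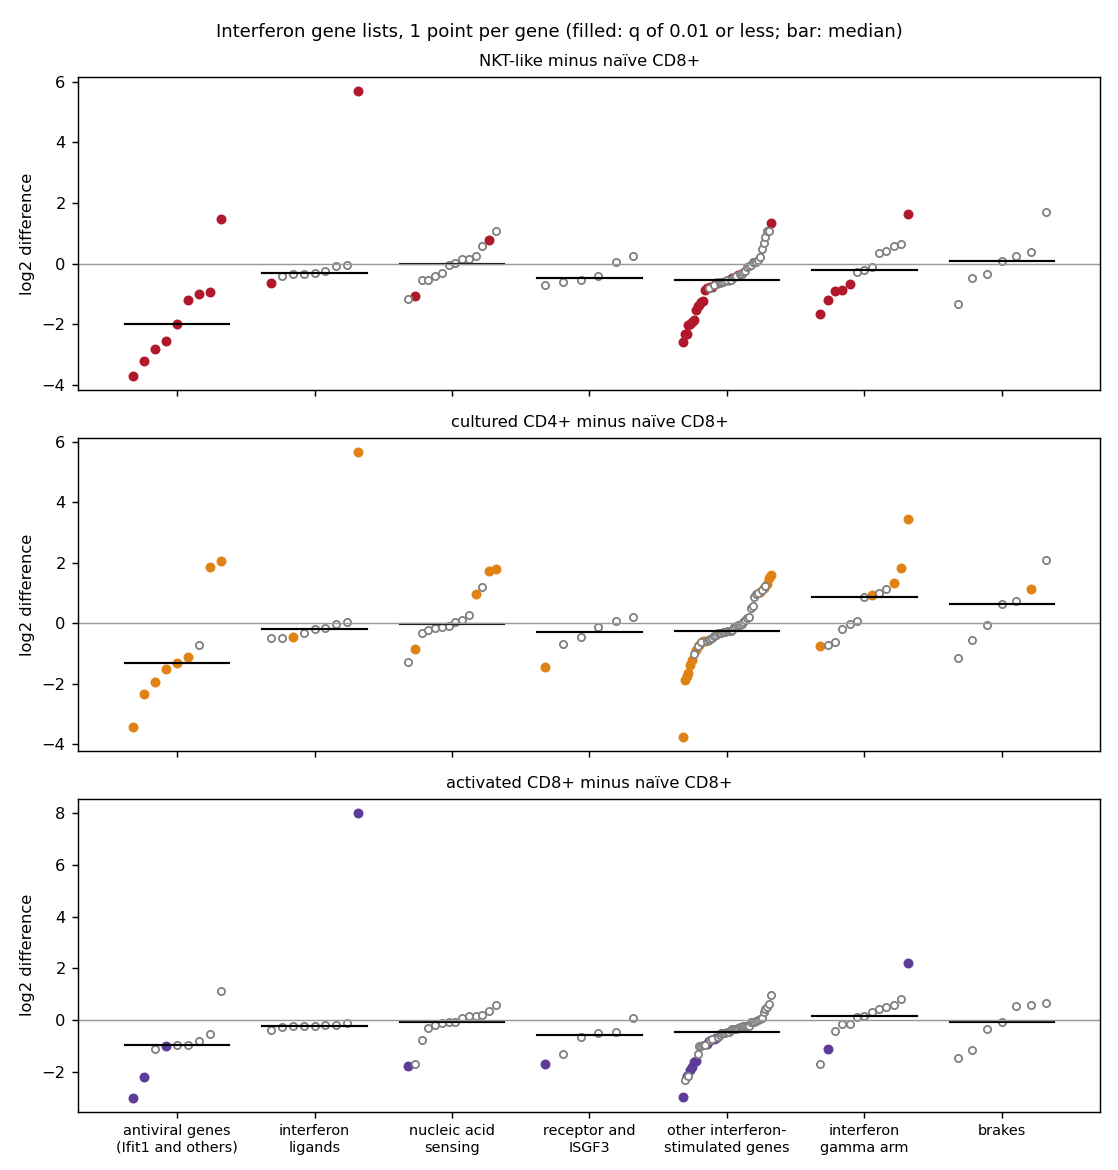
Log2 difference from naïve CD8+ T cells (vertical axis) of each measured gene, for the 9 antiviral genes and 6 lists of interferon genes, in NKT-like (top), cultured CD4+ (middle) and activated cells (bottom); filled points have q of 0.01 or less, and the bar is the list's median. The median of the 9 antiviral genes lies at -1.99, -1.33 and -0.99 from top to bottom, lower than that of any other list in each panel. The genes and lists were chosen with earlier results of these data known, so this order is a description and no test.

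Over all 98 measured genes of the 6 lists, NKT-like cells were higher than naïve cells in 4 and lower in 28, cultured CD4+ cells higher in 14 and lower in 14, and activated cells higher in 2 and lower in 13. The shares higher were 4.08%, 14.3% and 2.04% for NKT-like, cultured CD4+ and activated cells, beside 11%, 11.6% and 4.35% of all genes. The shares lower were 28.6%, 14.3% and 13.3% in the same order, beside 6.61%, 5.58% and 2.68% of all genes. Against the CD4+ cultures, NKT-like cells were higher in 1 gene and lower in 11, which is 11.2% of the list genes beside 1.8% of all genes. Against activated cells, NKT-like cells were higher in 6 and lower in 2, and cultured CD4+ cells higher in 4 and lower in none, the shares higher being 6.12% and 4.08% beside 3.34% and 1.48% of all genes. The even split in cultured CD4+ cells was 9 higher and 22 lower after quantile normalization of the values. With 1 naïve array left out, the number of lower genes was 11 (without replicate 1) or 7 (without replicate 2) in NKT-like cells, 6 or 7 in cultured CD4+ cells and 5 or 6 in activated cells, and without an activated array it was 6 or 8 in activated cells. Of the calls of single list genes made by the rule for named genes, 10 held in all alternatives that were fitted and 47 were lost in at least 1.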

How the data were processed

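The deposited table holds log2 values that the authors made from 12 Affymetrix mouse arrays with RMA, which corrects background, normalizes by quantiles and fits each probe set's probes together. Its version, and whether all arrays were normalized together, are not given in the sources used here. RMA draws arrays towards one distribution and understates changes of genes near the lower end of the scale. Arrays carry no counts, so their number limits the precision. Detection calls and scan batches were not analysed here.

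Of 45101 probe sets, 64 controls were left out and 45037 were tested. Gene names come from GEO's annotation of the platform, in which 34945 probe sets have 1 symbol, 932 several and 9160 none, and only the first name a gene. Of several probe sets of a gene the brightest was taken, and one marked as binding several sequences only where no other exists. One listed sensor was found under its array name, Ddx58. Listed genes with no such probe set were not analysed here.

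The 4 groups were fitted to all 12 arrays with limma 3.58.1 in R 4.3.3 (8 residual and 3.03 prior degrees of freedom), and all 6 pairs were compared with Storey q-values per comparison, with a threshold of 0.01, as in the study's methods. Groups and replicate numbers come from the sample titles. The study describes the cultures as independent; for the other groups nothing states it, and p-values then measure only the spread between these samples. The fit was tested on simulated data. Genes named are the 10 antiviral genes, up to 4 genes with the largest passing change per list and comparison, all genes of the receptor list, and the 5 genes nearest to the mean profile. Mx1, Pml and Ube2l6 were also named for their direction, and markers of lineage and of other spleen cells as checks. The members and lists were chosen with earlier results of these data known. Alternatives tried were Benjamini-Hochberg adjustment, each pair of groups fitted alone, a trended robust prior, a filter on dim probe sets, median centring, quantile normalization, averaging a gene's probe sets, the replicate number as a block, and leaving out each array in turn. Promoter windows are from RefSeq, GRCm38.p6.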

Additional observations from a re-analysis of the deposited data

Results flagged for a closer look

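Of the 12 probe sets in the 5 NKT-like arrays, 1 held an array far from the others: Rsad2 by probe set 1421008_at read 4.975 in replicate 2, against 5.17 to 5.25 in the other 4 arrays. By chance about 1 in 20 such groups holds an array this far out. The brightest probe set of Rsad2 read 7.15 in that array, within its group's range of 6.94 to 7.15.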

How the results depend on the processing

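With 2 naïve and 2 activated arrays, every comparison with those groups rests on few samples. RMA values near the lower end of the scale, as for Oasl2, Ddx60 (4.03 in activated cells) and Ube2l6 (4.34 in activated cells), understate a change. In NKT-like cells Ifit1 (4.92) and Usp18 (5.13) also averaged below the median of all values, 6.3. Of the 23 calls of the antiviral genes, 10 held in all 20 alternatives and 13 were lost in at least 1. A filter that kept 25425 probe sets brighter than the median of all values in at least 1 group removed Oasl2. The cause of the changes below was not tested, beyond the smaller number of arrays or genes that an alternative leaves by its construction.

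The counts of the 9 antiviral genes kept within 1.5 times in the alternatives other than those named below. For lower genes in NKT-like against activated cells the count was 2 with each pair of groups fitted alone, with the trended robust prior, after the filter on dim probe sets and with the mean of a gene's probe sets. Fitting the pair alone left 1 gene lower in activated against naïve cells. Of 13 pairs of arrays with the same replicate number in different groups, 3 had a correlation of their deviations above 0.1 (-0.50 to 0.28, against -0.38 to 0.50 in the other 38 pairs). In a group of 2 arrays the deviations mirror each other, so many of these values repeat with the same or the opposite sign. The correlations thus cannot show whether replicates with the same number deviated together. With the replicate block, the antiviral genes gave 0 higher and 5 lower in NKT-like against naïve cells, 2 lower in cultured CD4+ and 1 lower in activated against naïve cells, and 0 lower in NKT-like against activated cells. With that block the 98 list genes gave 0 higher and 5 lower in NKT-like, 7 higher and 5 lower in cultured CD4+ and 0 higher and 3 lower in activated against naïve cells, 3 lower in NKT-like against cultured CD4+ cells, 0 higher and 1 lower in NKT-like against activated cells, and 0 higher in cultured CD4+ against activated cells.

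For the 98 list genes, Benjamini-Hochberg adjustment gave 1 higher in NKT-like against naïve cells, 9 lower in cultured CD4+ against naïve cells, 1 lower in NKT-like against activated cells and 2 higher in cultured CD4+ against activated cells. Pairs fitted alone gave 1 higher and 1 lower in activated against naïve cells, 2 higher in NKT-like against cultured CD4+ cells, 3 higher and 1 lower in NKT-like against activated cells, and 1 higher in cultured CD4+ against activated cells. The trended robust prior, median centring and the mean of a gene's probe sets each gave 1 lower in NKT-like against activated cells, and median centring 9 lower in cultured CD4+ against naïve cells. The filter on dim probe sets gave 7 higher in NKT-like against naïve cells. Quantile normalization gave 9 higher and 22 lower in cultured CD4+ against naïve cells, 3 higher in NKT-like against cultured CD4+ cells and 5 lower in NKT-like against activated cells.

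Median centring shifted the median of all genes by 0.12 in NKT-like and by 0.13 in cultured CD4+ against naïve cells. Of all genes called, 62.4% were higher in NKT-like against naïve cells, and 72.2% after median centring and 51% after quantile normalization. In cultured CD4+ against naïve cells the shares were 67.4%, 77.4% after median centring and 55.7% after quantile normalization. After quantile normalization the share was 59.9%, beside 78.1%, in NKT-like against activated cells and 71.2%, beside 82.3%, in cultured CD4+ against activated cells.

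With each array left out in turn, the antiviral genes gave 0 to 1 higher and 4 to 8 lower in NKT-like, 1 to 2 higher and 3 to 7 lower in cultured CD4+, and 0 to 1 higher and 1 to 4 lower in activated against naïve cells, 1 to 2 lower in NKT-like and 0 to 1 lower in cultured CD4+ against activated cells. The list genes gave 0 to 8 higher and 7 to 31 lower in NKT-like, 2 to 18 higher and 6 to 23 lower in cultured CD4+, and 0 to 2 higher and 5 to 17 lower in activated against naïve cells. They gave 1 to 2 higher and 7 to 12 lower in NKT-like against cultured CD4+ cells, 0 to 6 higher and 1 to 3 lower in NKT-like against activated cells, and 0 to 4 higher in cultured CD4+ against activated cells.

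Among the genes named, directions turned only for differences that had not passed the test. When 1 array was left out, NKT-like minus cultured CD4+ ran from -0.55 to 0.054 for Rtp4. NKT-like minus activated ran from -0.31 to 0.52 for Ifit3, -0.49 to 0.040 for Oasl2, -0.36 to 0.032 for Rsad2 and -0.12 to 0.80 for Bst2. Cultured CD4+ minus activated ran from -0.60 to 0.17 for Ifit1, -1.06 to 0.028 for Ifit2, -0.49 to 0.34 for Ifit3 and -0.10 to 0.32 for Rsad2, and was -0.037 for Rsad2 with the mean of its probe sets. For NKT-like minus naïve, the dim probe set of Rsad2, 1421008_at, was at 0.0015 after median centring and 0.040 after quantile normalization, and the dim probe set of Rtp4, 1449143_at, at 0.0071 after quantile normalization.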
